A study of Homo sapiens with 3 samples.

Results

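Of the p300/CBP peaks recorded in MDA-MB-231 cells given a control siRNA, 579 were wide in the control and were met only by narrow peaks after siRNA against Fra-1. They are called reduced peaks here. A wide peak is one of 250 bp or more on chromosomes 1 to 22 and X, and a reduced peak is a wide siCTL peak that shares at least 1 bp with the siFra-1 list and whose overlapping siFra-1 peaks are all under 250 bp. Of 3644 wide siCTL peaks, 579 met this rule (15.9%, exact 95% interval 14.7 to 17.1%), out of 82901 siCTL and 39320 siFra-1 peaks in the whole lists. The other wide siCTL peaks comprised 2518 that met at least 1 wide siFra-1 peak, called kept wide, and 547 that met none, called lost. Since the reduced peaks were chosen by these siCTL and siFra-1 widths, the widths are a description and were not tested.

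MDA-MB-231 is an established line of triple negative breast cancer cells. Both groups were transfected for 72 h with siRNA at 4.5 nM and fixed for 7 min, siCTL with a negative control siRNA and siFra-1 with a mix of siRNAs against Fra-1. Each group is 1 library, for which the authors pooled replicate immunoprecipitations, so no spread between replicates was available, and an input sample was not analysed here. The lists give positions without heights or read counts, so the depth is unknown, and all intervals below cover counting error over peaks and not the difference between 1 culture and the next.

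p300 and CBP are a pair of closely related lysine acetyltransferases that transcription factors bring to enhancers and promoters, where they acetylate histones. Fra-1 is the product of FOSL1, pairs with a Jun protein and belongs to the Fos family. These AP-1 dimers recognise the palindrome-like heptamer TGAGTCA, which reads TGACTCA on the other strand, and often share enhancers in breast cancer cells with TEAD, RUNX and ETS factors.

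The DNA that stayed under a peak is shown for the reduced peaks with an AP-1 motif in the retained stretch that either were among those with the largest falls in width or lay near a gene used by the study as a viewpoint in chromatin contact assays. Retained means covered by a siFra-1 peak. The sequences are the plus strand of hg19, 5′ to 3′, with the AP-1 motif in capitals. The first is 1 of the 2 siFra-1 peaks left of the siCTL peak whose nearest protein-coding start is that of CCDC167 (chr6:37544352-37544501), the next is 1 of the 2 left at the peak nearest to NPR3 (chr5:33049902-33050101), the third is the siFra-1 peak in an intron of CDCP1 (chr3:45166002-45166201), and the last is the retained end of a peak in an intron of ASB1 (chr2:239343252-239343351).
CCDC167 retained: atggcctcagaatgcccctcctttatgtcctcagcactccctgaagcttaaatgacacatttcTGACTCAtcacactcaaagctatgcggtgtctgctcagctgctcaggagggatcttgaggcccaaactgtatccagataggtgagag
NPR3 retained: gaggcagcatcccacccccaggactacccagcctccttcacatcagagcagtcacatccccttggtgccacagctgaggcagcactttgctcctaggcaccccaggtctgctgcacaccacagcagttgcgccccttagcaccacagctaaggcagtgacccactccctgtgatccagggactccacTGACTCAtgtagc
CDCP1 retained: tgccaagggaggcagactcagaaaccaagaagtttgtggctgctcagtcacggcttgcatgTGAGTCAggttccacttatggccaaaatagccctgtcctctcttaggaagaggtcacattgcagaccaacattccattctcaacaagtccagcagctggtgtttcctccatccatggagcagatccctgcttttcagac
ASB1 retained: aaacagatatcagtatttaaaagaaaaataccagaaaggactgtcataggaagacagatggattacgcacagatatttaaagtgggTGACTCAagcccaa

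In other reduced peaks the motif lay in the lost stretch, the part of the siCTL peak that no siFra-1 peak covered. A motif was assigned by its middle base. Such sites from the same choice of peaks are shown with 11 bases on each side. They lie nearest to NPR3 (chr5:33050119-33050147), nearest to INSIG1 (chr7:154997385-154997413), in an intron of MYEOV (chr11:69089390-69089418 and chr11:69089453-69089481) and in an intron of PITPNC1 (chr17:65418185-65418213).
NPR3 lost: agcagacatggTGACTCAcatcctaggga
INSIG1 lost: cttctagacgcTGACTCAcaagccaagtc
MYEOV lost, first site: tgaatcgctgcTGAGTCAgttagcaggtc
MYEOV lost, next site: gtcagccccagTGACTCAcgtgtgtttct
PITPNC1 lost: tgcaggaagtaTGACTCAattgtgactgt
None of the stretches printed overlapped an annotated UTR. The INSIG1 and PITPNC1 motifs lie at the very edge of a siFra-1 peak, which begins at the last base of the motif. The NPR3 peak thus held an AP-1 motif in both its retained and its lost stretch, and the MYEOV peak held both of its motifs in the lost stretch.

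Reduced peaks were modest in width to begin with. Their siCTL widths ran from 250 to 800 bp with a median of 300 bp (mean 325 ± 84.4 bp, SD over 579 peaks), against a median of 400 bp in the kept wide class and 250 bp in the lost class. The summed width of the siFra-1 peaks that met them ran from 100 to 400 bp with a median of 150 bp (mean 168 ± 62.4 bp). In total, 188100 bp of siCTL peak stood against 97300 bp of siFra-1 peak, a ratio of 0.517, and 87550 bp (46.5%) of the siCTL bases were retained. The median fall was 150 bp, and 314 peaks (54.2%) fell at least 2-fold in width, 215 by 200 bp or more and 54 by 300 bp or more. At 25 peaks the rule was met without a fall, because several narrow siFra-1 peaks added up to at least the siCTL width.

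The rule's edges cut through a continuous range of widths. The widest siFra-1 peak met was 100 bp in 199 reduced peaks, 150 bp in 211 and 200 bp in 169, and 222 of the siCTL peaks were exactly 250 bp wide. Just outside the rule, 196 kept wide peaks met a siFra-1 peak of exactly 250 bp, and 345 of 2068 siCTL peaks of 200 bp met narrow siFra-1 peaks alone. In the authors' 50 bp bins, a single bin separates these from the reduced peaks.

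The share of wide peaks that were reduced is described by siCTL width, which the rule used, and is not tested. From 250 to 600 bp it was lower at each greater width. It was 23.1% (20.5 to 25.95%) at 250 bp, 14.5% (11.3 to 18.2%) at 400 bp and 4.79% (2.09 to 9.22%) at 550 bp. At 500 bp or more, 36 of 781 peaks were reduced (4.61%, 3.25 to 6.32%), compared with 543 of 2863 peaks of 250 to 450 bp (19.0%, 17.5 to 20.5%). At 600 bp and above, 5 peaks in all were reduced, too few for an order. A wider peak has further to fall to meet the rule, so the order is in part built into the choice. The same rule run from the other list, wide siFra-1 peaks whose overlapping siCTL peaks were all narrow, found 1579 of 5968 (26.5%, 25.3 to 27.6%), so there were 0.367 reduced peaks (0.333 to 0.404) for each such widened peak.

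**Figure D1:**
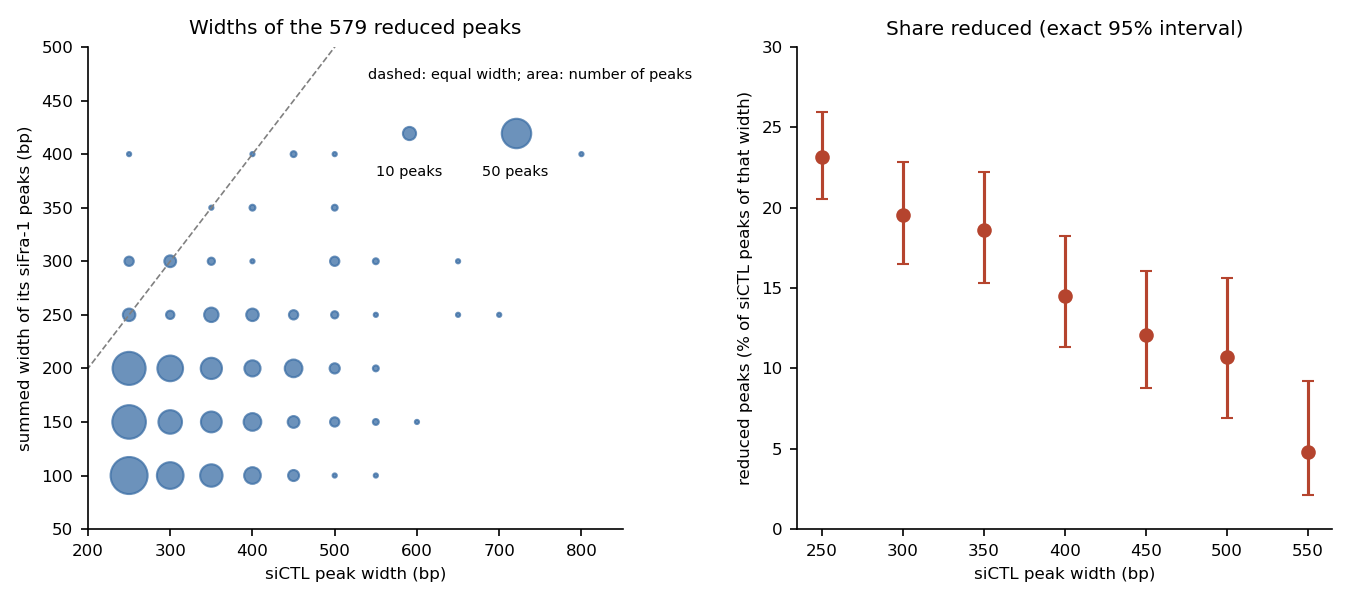
The left panel sets the siCTL width of each reduced peak (x axis, bp) against the summed width of its siFra-1 peaks (y axis, bp), with point area for the number of peaks, and the 25 peaks on or above the dashed line of equal width show no fall. The right panel gives the percentage of siCTL peaks of each width that were reduced, with exact 95% intervals, from 23.1% at 250 bp to 4.79% at 550 bp.

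Most reduced peaks shrank to a single siFra-1 peak inside the control peak. A single siFra-1 peak was met by 474 of 579 (81.9%), and 2 were met by 103 and 3 by 2. Of the 474, the siFra-1 peak lay wholly inside the siCTL peak in 388 (81.9%), of which 218 were clear of both edges and 170 touched an edge, and it reached past an edge in 86 (18.1%). The centres of the siCTL and siFra-1 peaks were a median of 50 bp apart, within 50 bp in 242 peaks (51.1%) and 100 bp or more apart in 134. No side was favoured, with 212 siFra-1 peaks on the lower coordinate side, 212 on the higher side and 50 centred. Retention was accordingly greatest in the middle. Each siCTL peak was cut into 10 equal parts. In siFra-1, 56.8% of the bases of part 5 were covered, against 30.5% of part 2 and 26.7% of part 10. A narrow peak inside a wider one covers the middle more often than the ends wherever it is placed. This shape is thus in part built into the choice.

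The 103 reduced peaks that met 2 siFra-1 peaks had a median siCTL width of 350 bp. The gap between their siFra-1 peaks had a median of 50 bp, which is 1 bin, with a range of 50 to 250 bp, and was 100 bp or less in 92. Both ends of the siCTL peak were still covered in 35 of them. When siFra-1 peaks at most 100 bp apart were merged first, 438 of the 579 remained reduced and 141 became kept wide.

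**Figure D2:**
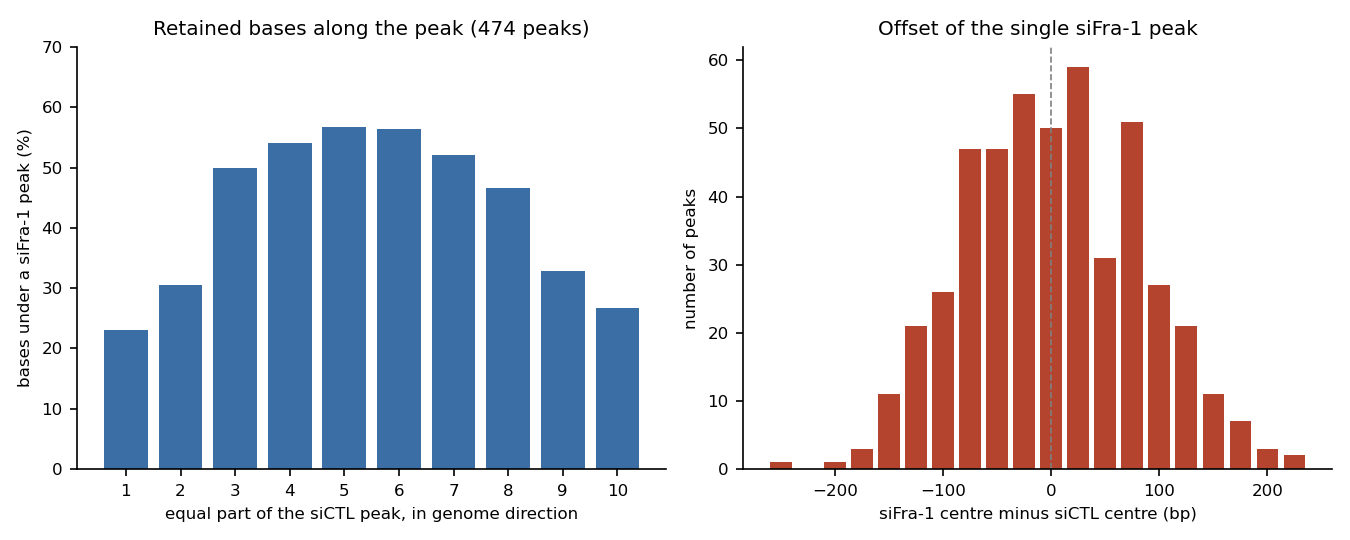
For the 474 reduced peaks with 1 siFra-1 peak, the left panel plots the percentage of siCTL bases under the siFra-1 peak in each of 10 equal parts of the siCTL peak. It is highest in part 5 at 56.8%, a shape in part built into the choice of narrow peaks within wide ones. The right panel counts peaks by the distance from the siCTL centre to the siFra-1 centre in bp, with 212 on each side of the dashed line at 0 and 50 on it.

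Motifs of 11 factor families were counted on both strands in the 200 bp around each siCTL centre. For widened siFra-1 peaks the window was laid around the siFra-1 centre. A match is a run of letters and not a bound site. AP-1 was the most frequent in reduced peaks, present in 186 of 579 (32.1%, Wilson 95% interval 28.4 to 36.0%), against 4.15% of windows of the same length moved by 2 kb to either side. The mean GC content of the windows was 49.4 ± 8.88% (SD over peaks) in reduced peaks, 49.1% in kept wide peaks and 44.9% in the moved windows. The kept wide share with AP-1 was 33.3%, and the difference of -1.20 percentage points had an interval of -5.32 to 3.12 that includes 0. The lost share was 25.8%, which is 6.35 points lower (1.04 to 11.6), but with the lost peaks weighted to the widths of the reduced peaks the difference was 2.02 points (-3.99 to 8.03). Widened siFra-1 peaks carried AP-1 in 20.6%, so reduced peaks were 11.5 points higher (7.26 to 15.8), and 10.1 points higher with the same weighting (5.61 to 14.5).

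Among reduced peaks the AP-1 share showed no order by the width of the widest siFra-1 peak left. It was 33.7%, 29.4% and 33.7% where the widest siFra-1 peak was 100, 150 and 200 bp, with intervals that overlap. It did go with the siCTL width, at 26.1% (20.8 to 32.3%) for 250 bp and 40.6% (32.7 to 48.9%) for 400 bp or more. At the same widths the share was 28.4% and 35.1% in kept wide peaks, and 19.1% and 36.2% in lost peaks. By the fall in width, the AP-1 share of reduced peaks was 38.6% (32.4 to 45.3%) for 200 bp or more and 28.3% (23.9 to 33.1%) for less. A larger fall needs a wider siCTL peak, and the fall and the siCTL width were not separated. Over the whole siCTL peak, 229 of 579 (39.6%) held an AP-1 motif, 181 of them a single one.

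TEAD factors are the DNA-binding partners of YAP and TAZ in the Hippo pathway, and their motif (GGAATG) set reduced peaks apart from kept wide ones more than AP-1 did. It was found in 24.2% of reduced peaks and 33.0% of kept wide peaks, a difference of -8.78 points (-12.6 to -4.71), and of -8.46 points at matched widths (-12.6 to -4.32). It was less frequent in the lost class (17.7%) and more frequent in widened siFra-1 peaks (31.2%), and in the windows moved by 2 kb it was found in 15.2%. The RUNX motif (TGTGGTT or TGCGGTT) was found in 9.33% of reduced and 13.2% of kept wide peaks (difference -3.86, interval -6.38 to -0.927). The FOX motif (TGTTTAC) was found in 4.32% and 7.15% (difference -2.83, interval -4.58 to -0.639). These were the 3 of 11 motifs whose interval against the kept wide class excluded 0, and all 3 were less frequent in reduced peaks. At matched widths, 5 of 11 excluded 0, the others being C/EBP and NF-kB. C/EBP (TTGCNNAA) stood at 9.84% and 12.2% (matched difference -3.03, interval -5.95 to -0.103), and NF-kB at 0 and 0.437% (matched difference -0.585, interval -0.995 to -0.176). As no reduced peak held the NF-kB motif in its central 200 bp, the matched interval takes no spread from the reduced class and is too narrow. The unmatched interval for NF-kB, -0.781 to 0.250, included 0. For the remaining 6, both intervals included 0, among them ETS (CCGGAAGT or CAGGAAGT) at 5.01% and 6.20%. AP-1 and TEAD together were found in 5.53% of reduced peaks (3.94 to 7.70%) and 8.54% of kept wide peaks (7.51 to 9.69%). None of the 11 motifs was found in 29.0% (25.5 to 32.8%) and 22.1% (20.5 to 23.7%), respectively.

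Some TEAD matches were satellite repeats. Of the reduced peaks, 51 (8.81%) lay no more than 1 Mb from a long run of unknown bases (1 Mb or longer), as around centromeres, compared with 6.91% of kept wide peaks. Only 1 of the 51 had an AP-1 motif in the central 200 bp and 24 had a TEAD motif, and 17 of them held GGAAT repeated 3 times in tandem, a human satellite unit. Those 17 held 430 of the 663 TEAD matches over all reduced peaks. Without peaks near such gaps, TEAD was found in 21.97% of 528 reduced and 30.7% of kept wide peaks (difference -8.70, interval -12.5 to -4.55), AP-1 in 35.0% and 35.5%, RUNX in 10.2% and 14.1%, and FOX in 4.55% and 7.59%, and the same 3 motifs had intervals that excluded 0.

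**Figure D3:**
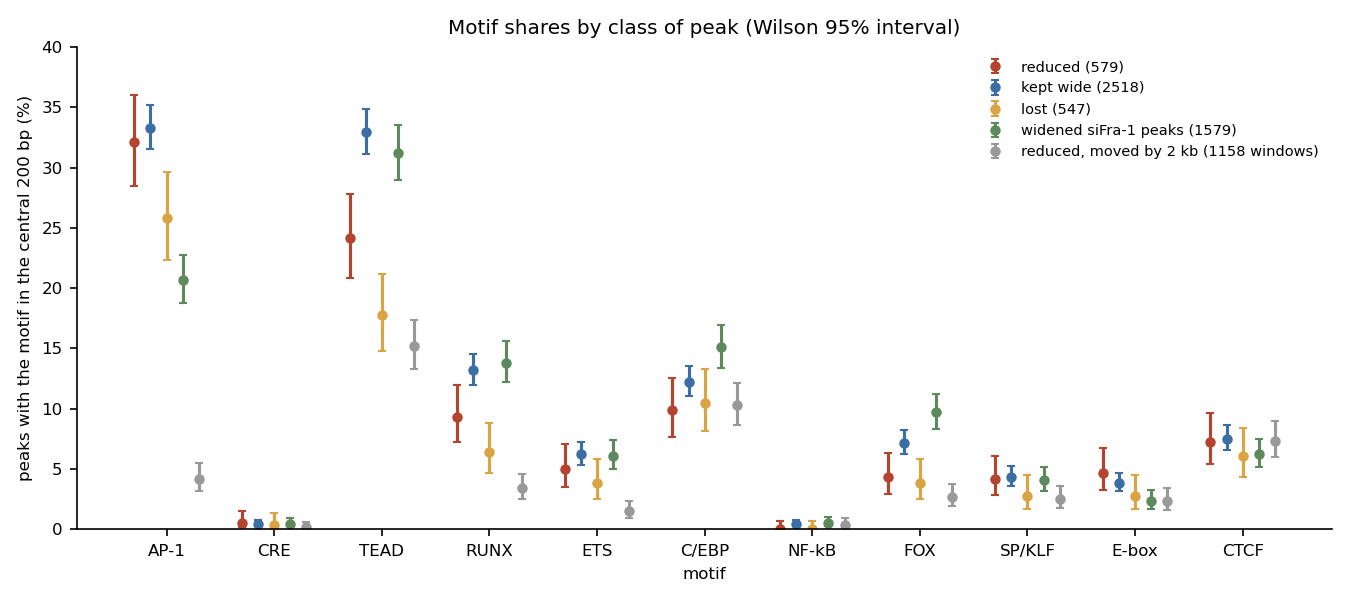
The percentage of peaks with each of 11 motifs (x axis) in the central 200 bp is plotted with Wilson 95% intervals for reduced, kept wide and lost siCTL peaks, for widened siFra-1 peaks and for windows moved by 2 kb from reduced peaks. AP-1 stands at 32.1% in reduced and 33.3% in kept wide peaks, whereas TEAD stands at 24.2% and 33.0%.

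Within reduced peaks, AP-1 motifs were denser in what stayed than in what went. Retained stretches held 162 motifs in 87.55 kb (1.85 per kb, exact Poisson interval 1.58 to 2.16) and lost stretches held 129 in 100.55 kb (1.28 per kb, 1.07 to 1.52), a difference of 0.57 per kb (0.21 to 0.93). Both were above the DNA 1 to 2 kb from the centres (0.207 per kb, 0.182 to 0.235). The contrast was larger by position in the siCTL peak, as stretches of the same length laid at its centre held 2.27 per kb and the rest 0.915 per kb. Likewise, AP-1 motifs lay a median of 50.5 bp from the siCTL centre and 61.5 bp from the siFra-1 centre in peaks with 1 siFra-1 peak. Where the siFra-1 centre was off by 50 bp or more, 87 of 144 motifs (60.4%, exact interval 51.9 to 68.5%) lay on the retained side.

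The same densities are given separately for peaks that shrank and peaks that split, and the difference between these was not tested. With 1 siFra-1 peak, the density was 1.98 per kb in the retained and 1.17 per kb in the lost stretch (difference 0.81, interval 0.40 to 1.23). With 2 or 3 siFra-1 peaks, it was 1.51 and 1.90 per kb (difference -0.40, interval -1.24 to 0.45). Away from assembly gaps, TEAD motifs were also denser in retained stretches, at 1.47 and 0.898 per kb (difference 0.57, interval 0.24 to 0.90), with 0.651 per kb in the DNA 1 to 2 kb away. The ETS motif was found at 0.308 per kb in retained and 0.149 per kb in lost stretches (difference 0.16, interval 0.02 to 0.30), on 27 and 15 matches. Densities were compared for all 11 motifs. The interval of the difference over all reduced peaks included 0 for every motif other than AP-1, TEAD and ETS.

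**Figure D4:**
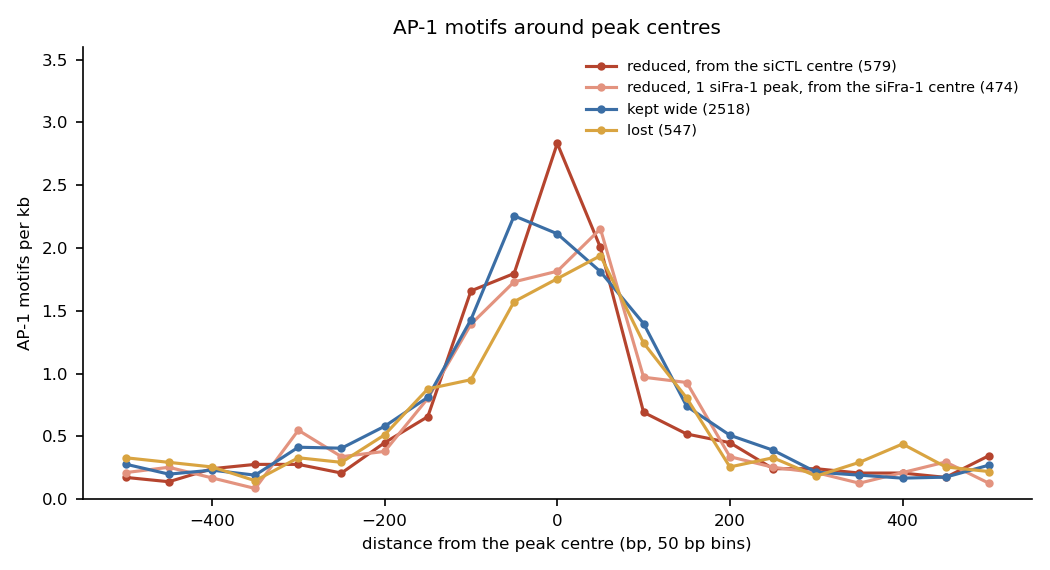
AP-1 motifs per kb (y axis) are plotted in 50 bp bins by distance from the peak centre in bp (x axis) for reduced, kept wide and lost siCTL peaks, and for reduced peaks around the centre of their single siFra-1 peak. All 4 lines are highest within 50 bp of the centre and fall off on both sides, and the line around the siCTL centre of reduced peaks reaches 2.83 per kb.

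Reduced peaks lay mostly far from promoters, as did kept wide peaks. By the base at the peak's centre, 316 (54.6%) were intronic, 213 (36.8%) intergenic, 27 in non-coding exons, 14 in UTRs and 9 in coding exons. The median distance to a protein-coding start was 56.5 kb, and 36.1% of the peaks were over 100 kb from one. Kept wide peaks were close to this, with 54.4% intronic, 36.7% intergenic, a median of 54.9 kb and 34.9% over 100 kb away. For all siCTL peaks the median was 60.1 kb and 38.6% were over 100 kb away. A 3 kb window centred on such a start was reached by 32 reduced peaks (5.53%, 3.94 to 7.70%). The share was 4.13% in kept wide peaks (difference 1.40, interval -0.402 to 3.68) and 7.50% in lost peaks (difference -1.97, interval -4.94 to 0.931). Reduced peaks were spread over all 23 chromosomes. The share of wide peaks reduced ranged from 10.5% on chromosome 17 to 20.9% on chromosome 2. These were the 2 chromosomes of 23 whose exact interval (6.51 to 15.7% and 16.2 to 26.1%) did not hold the share over all.

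Reduced peaks stood in thinner surroundings than kept wide peaks and in denser ones than lost peaks. Another wide siCTL peak lay within 10 kb of 28.8% of reduced peaks, 39.5% of kept wide peaks and 19.7% of lost peaks. The difference from kept wide peaks was -10.6 points (-14.7 to -6.37), and -9.02 points (-13.4 to -4.64) at matched widths. A wide siFra-1 peak that did not overlap it lay within 10 kb of 30.4% of reduced, 47.9% of kept wide and 20.1% of lost peaks, a difference from kept wide of -17.5 points (-21.6 to -13.2). All the same, the peaks around the reduced ones covered more bases in siFra-1 than in siCTL, at a mean of 754 and 657 bp within 10 kb, a ratio of 1.15, compared with 1.22 around kept wide and 0.898 around lost peaks. Another reduced peak lay within 10 kb of 10.7% of reduced peaks and 7.59% of kept wide peaks (difference 3.12, interval 0.605 to 6.07), which at matched widths was 2.32 points with an interval of -0.564 to 5.20. Such neighbours formed 27 groups holding 62 peaks, the largest of 4 peaks, and all 3 groups of 4 lay beside centromeric gaps on chromosomes 4, 10 and X.

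Falls of 400 bp or more were seen at 8 reduced peaks, 3 of 450 bp and 5 tied at 400 bp, and 6 are described here, taking wider siCTL peaks first within ties and then genome order. The tied peaks not among them were that upstream of STK40, described with the promoters below, and 1 nearest to KCNH5 (550 to 150 bp). None of the 6 lay within 25 kb of a protein-coding start, whereas the STK40 peak lay 0.777 kb from one. The peak nearest to CCDC167, which encodes a coiled-coil protein, was 700 bp wide in siCTL (chr6:37543952-37544651) and met siFra-1 peaks of 100 and 150 bp. It was intergenic and 76.6 kb from the gene's start. The peak nearest to ANO10, an anoctamin family gene, went from 600 bp (chr3:43913602-43914201) to 150 bp, and 2 siFra-1 peaks of 400 bp stood within 2.5 kb of it, where siCTL had peaks of 200 and 100 bp or none. The reduction at this site thus had wider siFra-1 peaks beside it. The peak nearest to SPRY2, a feedback inhibitor of receptor tyrosine kinase signalling, went from 550 bp (chr13:80614652-80615201) to 100 bp and lay 300 kb from the gene with no other peak of either list within 5 kb. Neither of these last peaks held an AP-1 motif.

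The widest of all reduced peaks, 800 bp, was nearest to NPR3, the clearance receptor for natriuretic peptides (chr5:33049852-33050651), and met siFra-1 peaks of 200 and 200 bp. The peak nearest to INSIG1, which restrains SREBP processing in the endoplasmic reticulum, went from 650 bp (chr7:154997202-154997851) to 100 and 150 bp. The peak in an intron of MYEOV, on the chromosome arm amplified in many breast tumours, went from 550 bp (chr11:69089152-69089701) to 150 bp, leaving both AP-1 sites printed above outside the siFra-1 peak. All 8 peaks lay away from large assembly gaps.

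**Figure D5:**
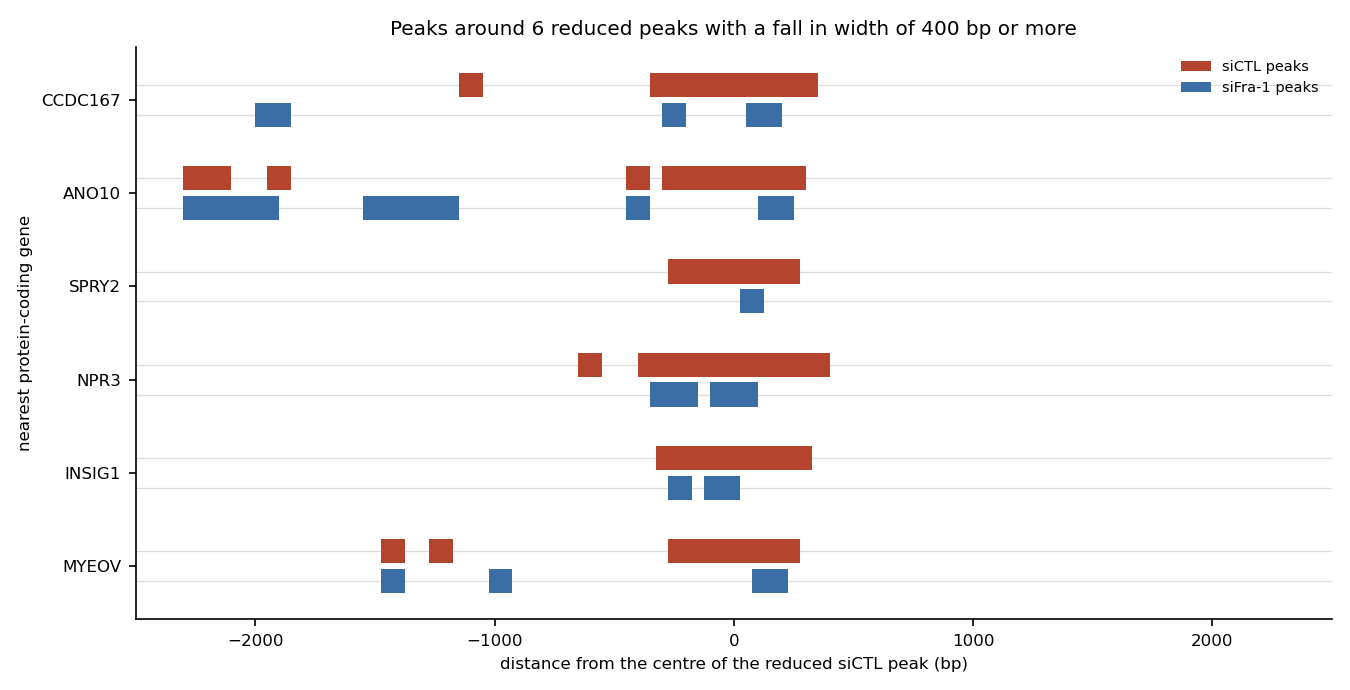
Peaks of the siCTL list (upper bar of each pair) and the siFra-1 list (lower bar) are drawn to scale around 6 of the 8 reduced peaks with a fall in width of 400 bp or more, by distance from the centre of the siCTL peak in bp, and labelled by the nearest protein-coding gene. Each central siCTL bar, from 550 to 800 bp, stands over 1 or 2 siFra-1 bars of 100 to 200 bp.

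At promoters, the 6 widest reduced peaks, with ties taken in genome order, belonged to genes of unlike roles. At the start of ITGB1, which encodes the integrin beta 1 subunit through which cells hold on to collagen and fibronectin, a 450 bp peak (chr10:33294502-33294951) was left with 150 bp in siFra-1, and 1 AP-1 motif lay in it. A further reduced peak lay in an intron of ITGB1 (chr10:33269402-33269901), from 500 to 200 bp, also with 1 AP-1 motif. At the start of KIF18B, a kinesin of the mitotic spindle, a 500 bp peak (chr17:43024852-43025351) met 2 siFra-1 peaks of 100 bp and held no AP-1 motif. The peak upstream of STK40, a kinase-like gene, went from 500 bp (chr1:36852052-36852551) to 100 bp and held 2 AP-1 motifs. The others were ZNF185 (chrX:152064852-152065401, 550 bp to 3 siFra-1 peaks of 100 bp), NR2E3 (chr15:72083352-72083801, 450 bp to 100 and 150 bp) and KRTAP4-9 (chr17:39260852-39261301, 450 bp to 100 and 100 bp). The remaining 26 promoter peaks were 250 to 450 bp wide. Those at MIDN and C19orf33, at 450 bp, tied with ITGB1, NR2E3 and KRTAP4-9 and came later in genome order.

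Of the reduced peaks, 4 lay within 100 kb of the starts of the 34 viewpoint genes, which the study picked with its own results in hand. All 4 were intronic. In CDCP1, a transmembrane glycoprotein that Src family kinases phosphorylate, a 350 bp peak (chr3:45165902-45166251) kept a 200 bp siFra-1 peak over its AP-1 motif. In PITPNC1, a phosphatidylinositol transfer protein gene, a 350 bp peak (chr17:65418002-65418351) met a 100 bp siFra-1 peak that began at the last base of its AP-1 motif. In PDE2A, a phosphodiesterase stimulated by cyclic GMP, a 450 bp peak (chr11:72343352-72343801) met 200 bp and held no AP-1 motif. In ASB1, an ankyrin repeat and SOCS box gene, a 350 bp peak (chr2:239343002-239343351) met a 200 bp siFra-1 peak that began inside it, covered its AP-1 motif and reached past its edge. These sites thus include both outcomes for the motif.

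Gene groups were described by the wide siCTL peaks within 100 kb of their members' starts, of which 15.6% (370 of 2377) were reduced near any protein-coding gene. Near integrin and focal adhesion genes, 7 of 39 were reduced (17.9%, 7.54 to 33.5%) and none were lost. Beside the pair at ITGB1, 1 was a 250 bp peak in an intron of ITGB5 (chr3:124556652-124556901), with 150 bp in siFra-1. The siFra-1 peak at ITGB5 shared 50 bp with the siCTL peak and lay mostly outside it. At ITGA2, the collagen-binding alpha 2 subunit, 2 peaks of 400 and 300 bp (chr5:52315152-52315551 and chr5:52300802-52301101) met 200 and 150 bp of siFra-1 peak. At ACTN4, an actin cross-linker, 2 peaks of 500 and 250 bp (chr19:39148352-39148851 and chr19:39127552-39127801) met 300 and 200 bp. Near ERK feedback genes, 5 of 25 were reduced (exact interval 6.83 to 40.7%), among them a 500 bp peak near the ERK phosphatase gene DUSP1 (chr5:172228202-172228701), with 300 bp in siFra-1, and a 450 bp peak in DUSP4 (chr8:29198852-29199301), with 100 bp. Another 2 of the 5 were counted for SPRED3 and lay near the 3′ end of SPINT2 and at the start of C19orf33, as described below. Near matrix and matrix protease genes, 5 of 29 were reduced (17.2%, 5.85 to 35.8%), among them a 300 bp peak in an intron of LOXL2, a lysyl oxidase that cross-links collagen (chr8:23268552-23268851), with 200 bp in siFra-1. Another was a 250 bp peak within 100 kb of LAMB3, a laminin subunit gene, but nearest to G0S2 (chr1:209847252-209847501), also with 200 bp. Of that siFra-1 peak, 100 bp lay inside the siCTL peak.

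Transcription factor and signalling genes had a few reduced peaks each. Near AP-1 and related factor genes, 3 of 21 were reduced. They lay near JUN (350 to 200 bp, chr1:59221202-59221551), FOSB (450 to 150 bp, in an intron of ERCC1, chr19:45959002-45959451) and MAFF (400 to 150 bp, in an intron of TMEM184B and nearest to PLA2G6, chr22:38624902-38625301). The siFra-1 peak near FOSB shared 50 bp with the siCTL peak and lay mostly outside it. All 5 wide siCTL peaks near FOSL1 itself were kept wide. Near TGF-beta pathway genes, 3 of 19 were reduced, in introns of the receptor gene TGFBR2 (350 to 200 bp), the ligand gene TGFB1 (300 to 200 bp) and the effector gene SMAD3 (250 to 200 bp). The siFra-1 peak at TGFB1 shared 50 bp with the siCTL peak and lay mostly outside it. Near Hippo effectors and targets, 2 of 18 were reduced, within 100 kb of AMOTL2 but nearest to CEP63 (350 to 100 bp) and within AJUBA (250 bp to 2 peaks of 100 bp). Receptor tyrosine kinases and caveolins had 1 of 20, at IGF1R, cytokines and chemokines 1 of 14, near IL11, and luminal epithelial genes 2 of 6, near ELF5 and KRT19. The IL11 peak lay 0.396 kb from the start of UBE2S, and the ELF5 peak was nearest to EHF.

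Genes with a contact that the study lists as raised by Fra-1 had 2 of 15 wide peaks reduced, those at CDCP1 and PITPNC1, and 3 lost. Those it lists as lowered by Fra-1 had 0 of 20 reduced (exact interval 0 to 16.8%) and 20 kept wide, and the other viewpoints 2 of 17. Genes and markers of mesenchymal transition had 0 of 4 reduced (0 to 60.2%) and 2 lost. The exact interval of each of the 13 groups held the 15.6% near any gene. At these numbers no group could be told from the background by its reduced share. For kept wide and lost peaks, the counts near any protein-coding gene were 1639 and 368 of 2377. Group counts of these classes were not tested against them.

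The genes with most reduced peaks within 100 kb of their start had 3 each, and among the 12 such genes the group with the greatest summed siCTL width was at SPINT2 on chromosome 19. It encodes a Kunitz-type inhibitor of serine proteases. Of 4 wide siCTL peaks within 100 kb of its start, 3 were reduced and 1 was kept wide. They went from 400 to 200 bp in an intron of SPINT2 (chr19:38754502-38754901), from 350 to 150 bp near its 3′ end (chr19:38781202-38781551) and from 450 bp to 2 peaks of 100 bp at the start of C19orf33 (chr19:38794552-38795001). Each of the 3 held 1 AP-1 motif in its central 200 bp. The same 3 peaks lie within 100 kb of 8 genes, which is why these genes, DPF1, PPP1R14A, YIF1B, KCNK6 and CATSPERG among them, make up 8 of the 12. The other 4 were CARD10, ELFN2 and MFNG on chromosome 22, with summed siCTL widths of 900 bp, and TRAF3IP3 on chromosome 1, with 850 bp, against 1200 bp at SPINT2. In all, 1052 of 20097 protein-coding genes had at least 1 reduced peak within 100 kb of their start, 953 of them 1 and 87 of them 2. These counts come from 370 reduced peaks, as a peak can lie near several starts.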

How the data were processed

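The authors aligned p300/CBP ChIP-seq reads to hg19 with BWA according to the methods (Bowtie2 per the labels), processed them with PASHA in 50 bp bins, scaled the signal, subtracted background and called runs above a threshold of 25 with a maximum gap of 50 bp and a minimum run of 50 bp in both conditions. A difference in scaling or enrichment between the libraries would change peak widths as occupancy would. The deposited lists hold positions only, so no p-value was computed and precision comes from the number of peaks.

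Starts were raised by 1 for printing. Overlaps, Wilson, exact binomial, Newcombe and Poisson intervals (95%) were computed in Python 3.11.15 with scipy 1.17.1, checked on simulated data, where all 3000 simulated peaks were given their class, and against bedtools 2.31.1. Matched-width differences weight the other class to the siCTL widths of reduced peaks, with widths from 600 bp pooled. Their intervals are normal approximations. Motifs were searched in GRCh37, and genes came from GENCODE release 44 lifted to that build. Nearest genes are by protein-coding start. Named peaks were the 6 largest falls (ties by siCTL width, then genome order), the 6 widest at promoters, all near viewpoint genes, up to 3 genes for each of 13 lists (191 genes, all found) and the 5 genes with most reduced peaks (ties by summed siCTL width). The members and lists were chosen with earlier results of these data known. Other minimum widths, overlaps, windows, motifs and neighbour distances were tried. Peaks near 1 gene that the naming rule picked are not reported here.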

Additional observations from a re-analysis of the deposited data

How the results depend on the processing

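No paired analysis was possible because each condition is 1 library. Alternatives changed the minimum width, the overlap, the treatment of close siFra-1 peaks, the windows, the motif and the distances. The number of reduced peaks ranged from 438 with close siFra-1 peaks merged to 649 with wide peaks from 200 bp. The AP-1 share minus that of kept wide peaks ranged from -4.97 points over whole peaks to 2.68 with wide peaks from 300 bp, and its interval excluded 0 in 1 of 11 alternatives. The AP-1 share minus that of lost peaks rose to 12.8 points with wide peaks from 200 bp, and its interval included 0 at matched widths (2.02) and with wide peaks from 300 bp (1.08). The cause was not tested. The retained minus lost AP-1 density was 1.36 per kb for stretches of the same length laid at the peak centre, and at least 0.46 per kb in the other alternatives. The promoter difference changed sign with a 1 kb window (-0.03) and its interval excluded 0 with wide peaks from 200 bp alone (2.45 points). The difference in wide siFra-1 neighbours reached -21.7 points when siFra-1 peaks within 200 bp counted as overlapping, and the intervals of both neighbour differences excluded 0 in all 10 alternatives. The TEAD, RUNX and FOX alternatives were added after seeing the data. Their differences from kept wide peaks kept their sign in all 10, and the interval excluded 0 in 10, 9 and 8. With 1 library for each condition, none of these values shows how far the lists would vary between cultures.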
